A study of Mus musculus with 6 samples.

Results

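Voltage-gated calcium channels were described here through 10 genes, 8 that encode the pore-forming α1 subunit (Cacna1a, Cacna1b, Cacna1c, Cacna1d, Cacna1e, Cacna1g, Cacna1h and Cacna1i) and 2 that encode an α2δ subunit (Cacna2d1 and Cacna2d2). They were chosen by symbol, all 10 were among the 45470 named genes of the count table, and all 10 were among the 15398 genes with enough counts to be tested. RNA was sequenced from prefrontal cortex homogenate of mice in postnatal week 8. Of the 6 libraries, 3 came from mice heterozygous for the 16p11.2 duplication and 3 from wild type mice, all from a C57BL/6N:129Sv hybrid line that was crossed back onto C57BL/6 over 10 generations, with no other allele or treatment named in the labels. The tissue is a homogenate of all cell types, so a smaller share of a cell type and less RNA per cell cannot be told apart. No label says that the libraries are separate animals or litters, and p-values therefore cover only library-to-library spread.

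These channels open when a neuron depolarises and let calcium in. L-type channels (Cacna1c, Cacna1d) sit mainly on the soma and dendrites and couple firing to gene expression. P/Q-type (Cacna1a) and N-type (Cacna1b) channels trigger transmitter release at nerve terminals, and R-type channels (Cacna1e) act in dendrites and terminals. T-type channels (Cacna1g, Cacna1h, Cacna1i) open near rest and shape burst firing. The α2δ subunits are extracellular partners that bring the pore to the membrane and bind gabapentin, and the cytosolic β subunits do much of the same trafficking from inside.

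None of the 10 genes passed the edgeR test, and for most of them 1 of the 3 wild type libraries lay among the duplication libraries. Each of the 8 pore genes and Cacna2d2 had a mean below that of wild type, with log2 fold changes (duplication over wild type) of -0.44 to -0.74, while Cacna2d1, the most abundant of the 10 per kilobase, was at -0.045. In the edgeR quasi-likelihood test with Benjamini-Hochberg adjustment over all genes, 0 of 10 passed in either direction at 0.05, where 0% of all tested genes were called higher and 0% lower. At an unadjusted p under 0.05 the count was 9 lower and 0 higher of 10, where 12.2% of all tested genes were lower and 7.05% higher by that measure. DESeq2 called 2 lower, Cacna1d and Cacna2d2 (its background was 1.55% of genes lower and 0.299% higher), and limma-voom 0. The 10 genes had a median log2 fold change of -0.56, against 0.0050 for all tested genes together.

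The names of the deposited table are displaced against its counts, by 0 lines at the start and by 6 at the end, and each gene was read at the offset of its stretch. In the 625 to 1001 names around each of the 10 genes, the offset at which protein-coding names matched the higher counts equalled the one used. The duplicated segment checked the genotype labels: Aldoa, a glycolytic enzyme gene inside it, had 2653 to 3700 CPM (a library's counts scaled to a common total with edgeR's TMM factors) in duplication libraries against 1494 to 1831 CPM in wild type libraries, and Mapk3, the gene of the kinase ERK1, 92.0 to 126 against 64.2 to 73.6 CPM. Although their groups did not overlap, neither gene passed in edgeR over all genes (adjusted p = 0.129 for Aldoa and 0.163 for Mapk3). Total counts were 14891890 to 21872271 in duplication libraries and 12988457 to 14369271 in wild type libraries. Wild type replicate 2 stood apart from the other wild type libraries, since component 1 of log2 CPM, holding 45.5% of the variance, put duplication libraries at -24.8, -17.8 and -7.23, wild type replicates 1 and 3 at 27.2 and 26.7, and wild type replicate 2 at -4.04. Libraries of 1 genotype also differed in sex-linked RNA. Y-linked genes summed to 213, 12.3 and 0.629 CPM in duplication replicates 1 to 3 and 195, 12.4 and 0.291 CPM in wild type replicates 1 to 3, and Xist had 0, 142 and 162 CPM in duplication and 0, 150 and 257 CPM in wild type. Libraries of the same number were thus alike in sex-linked RNA across genotypes, and replicate 2 of each genotype held both kinds.

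Among the L-type genes, Cacna1c, whose channel is the main neuronal and cardiac L-type pore, had 55.1, 69.2 and 69.7 CPM in duplication replicates 1 to 3 and 122, 65.8 and 103 CPM in wild type replicates 1 to 3. The groups overlapped, because wild type replicate 2 lay inside the duplication range, and the log2 fold change was -0.59 ± 0.20 (SE; edgeR adjusted p = 0.182). Cacna1d, whose channel opens at more negative voltages, had 34.8, 39.5 and 46.5 CPM in duplication libraries and 68.7, 42.2 and 68.9 CPM in wild type libraries. Again only wild type replicate 2 overlapped, with a log2 fold change of -0.57 ± 0.18 (edgeR adjusted p = 0.176; DESeq2 adjusted p = 0.0492).

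Among the 3 genes of presynaptic and dendritic channels, Cacna1e, the R-type pore, had 268, 369 and 380 CPM in duplication libraries and 636, 391 and 667 CPM in wild type libraries. It was the one pore gene whose groups did not overlap, with wild type replicate 2 just above the highest duplication library. Its mean was 339 ± 61.3 CPM in duplication and 565 ± 151 CPM in wild type (SD, n = 3 each), a log2 fold change of -0.74 ± 0.20 (edgeR adjusted p = 0.174). Cacna1a, the P/Q-type pore and a gene of inherited ataxia and migraine, had 68.9, 77.3 and 84.5 CPM in duplication libraries and 153, 82.2 and 138 CPM in wild type libraries, a log2 fold change of -0.69 ± 0.20 (edgeR adjusted p = 0.174). Cacna1b, the N-type pore, had 92.3, 109 and 111 CPM in duplication libraries and 177, 104 and 147 CPM in wild type libraries, and was at -0.45 ± 0.17 (edgeR adjusted p = 0.202). For both genes wild type replicates 1 and 3 lay above all duplication libraries and replicate 2 lay among them.

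For the T-type genes too, duplication replicate 1 was the lowest library and wild type replicates 1 and 3 were the highest. Cacna1i had 55.5, 68.7 and 74.1 CPM in duplication libraries and 128, 68.4 and 112 CPM in wild type libraries, a log2 fold change of -0.64 ± 0.20 (edgeR adjusted p = 0.177). Cacna1h had 26.8, 36.4 and 35.2 CPM in duplication libraries and 59.2, 33.4 and 47.0 CPM in wild type libraries, a log2 fold change of -0.51 ± 0.19 (edgeR adjusted p = 0.214). Wild type replicate 2 was inside the duplication range for both. Cacna1g, whose channel drives thalamic bursting, had 44.3, 45.8 and 55.0 CPM in duplication libraries and 76.9, 46.2 and 73.9 CPM in wild type libraries, and its log2 fold change of -0.44 ± 0.18 was the smallest of the pore genes (edgeR adjusted p = 0.225).

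The α2δ genes differed from each other. Cacna2d2 had 12.8, 13.7 and 14.8 CPM in duplication libraries and 22.1, 16.1 and 21.9 CPM in wild type libraries. Its groups did not overlap, and with a log2 fold change of -0.54 ± 0.13 (edgeR adjusted p = 0.174, unadjusted p = 0.00258) it had the smallest p of the 10 genes. Cacna2d1, the main gabapentin-binding subunit of cortex, had 413, 427 and 433 CPM in duplication libraries and 491, 395 and 427 CPM in wild type libraries. These groups overlapped and the log2 fold change was -0.045 ± 0.080 with a 95% interval of -0.23 to 0.14. In all, 2 of 10 genes were lower with no overlap between genotypes and 0 higher, where 10.5% of all tested genes were lower and 11.7% higher in that way.

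In GENCODE coordinates of GRCm38, Cacna1e (ENSMUSG00000004110.16) lies at chr1:154390731-154884501 on the minus strand, Cacna2d2 (ENSMUSG00000010066.15) at chr9:107399612-107529343 on the plus strand and Cacna2d1 (ENSMUSG00000040118.15) at chr5:15934691-16374511 on the plus strand. The other genes are spread over chromosomes 2 (Cacna1b), 6 (Cacna1c), 8 (Cacna1a), 11 (Cacna1g), 14 (Cacna1d), 15 (Cacna1i) and 17 (Cacna1h).

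**Figure D1:**
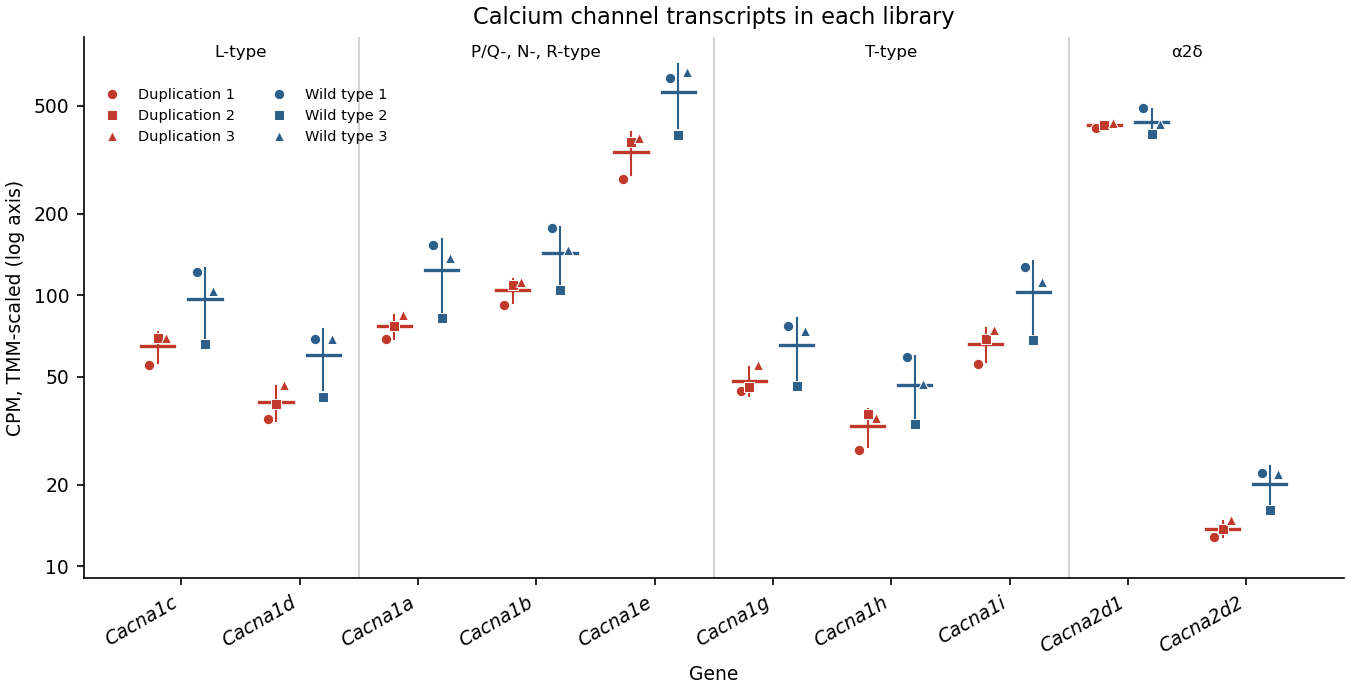
Level of each of the 10 genes in every library, in TMM-scaled CPM on a log axis. Each point is a library (marker shape gives the replicate number), horizontal bars are group means and vertical bars 1 SD, with duplication left of wild type for each gene. Wild type replicate 2 (blue square) lies inside the duplication range for 7 genes, below it for Cacna2d1 and above it for Cacna1e and Cacna2d2.

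**Figure D2:**
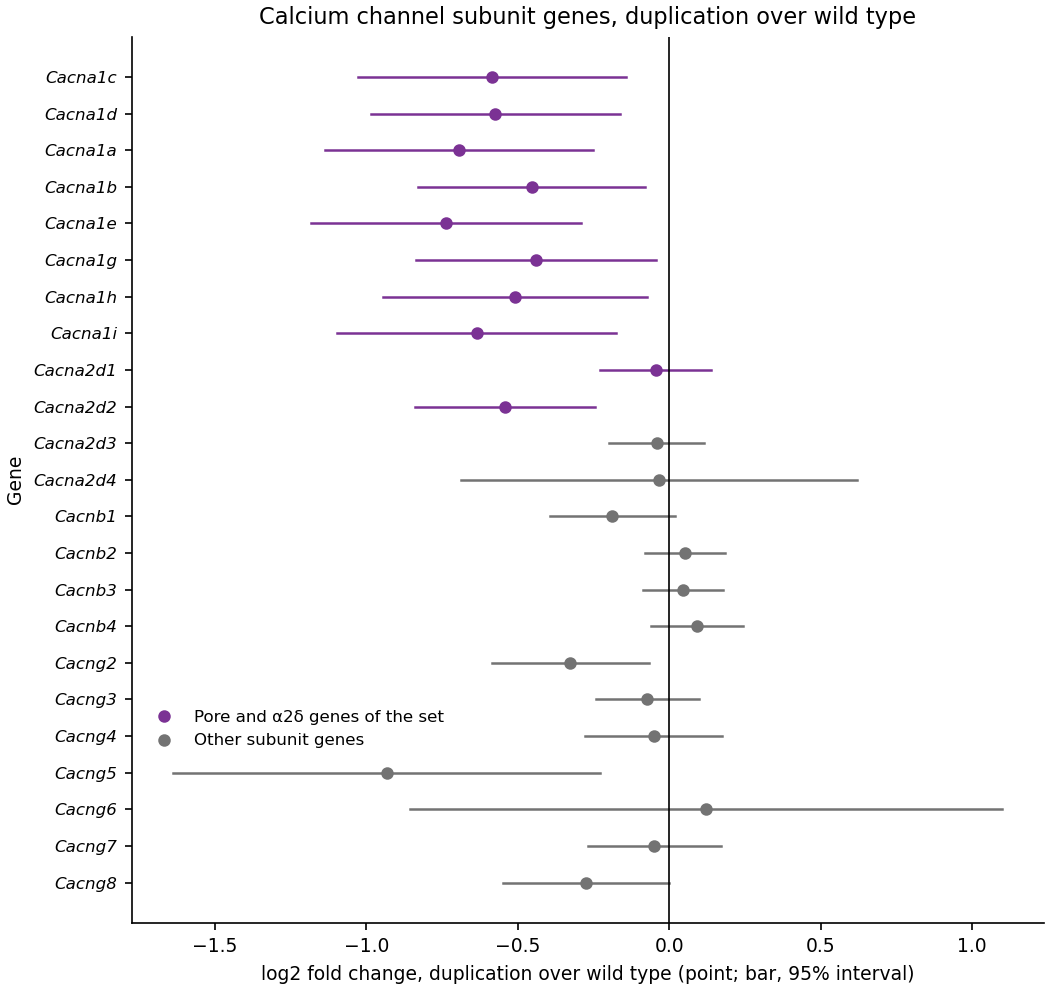
Log2 fold change of duplication over wild type for the 10 genes and the other tested subunit genes, with 95% intervals derived from the edgeR F statistic, before adjustment for multiple tests. Of the 10 genes, 9 lie between -0.44 and -0.74 with intervals below 0, and Cacna2d1 lies at -0.045; the 4 β genes lie between -0.19 and 0.092.

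The lower values came with a large spread in wild type. For 9 of the 10 genes wild type replicates 1 and 3 lay above all duplication libraries, and for 7 of the 10 wild type replicate 2 lay inside the duplication range. Duplication replicate 1 was the lowest library for 9 genes. The coefficient of variation of the pore genes was 9.96% to 18.1% in duplication and at least 25.6% in wild type. Centred on the mean of the libraries, the 8 pore genes averaged -0.49, -0.21 and -0.12 (log2) in duplication replicates 1 to 3 and 0.59, -0.21 and 0.44 in wild type replicates 1 to 3.

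The mean over 292 tested transcripts of the annotation classes TEC (loci with transcript evidence that awaits an experiment) and sense intronic (transcripts within introns of other genes) moved partly with them. In the same order it was -0.44, -0.43 and -0.12 in duplication libraries and 0.47, -0.00042 and 0.53 in wild type libraries. Like the pore average, it was high in wild type replicates 1 and 3. Unlike that average, it was higher in wild type replicate 2 than in all duplication libraries. These transcripts had a median log2 fold change of -0.70, and 95.9% of them were negative. Of 10 nuclear-retained long RNAs, 8 had an unadjusted p under 0.05 and lower values in duplication, among them Malat1 at -0.48 ± 0.099 and Kcnq1ot1 at -0.87 ± 0.17, and 0 passed in edgeR. At that unadjusted level 12.2% of all tested genes were lower. With the TEC and sense intronic level as a covariate in edgeR, 9 of the 10 calcium channel genes had positive log2 values, from 0.16 for Cacna1e to 0.42 for Cacna1g, Cacna2d2 was at -0.0063, and 0 passed (adjusted p = 0.9997 for each). That level and genotype are themselves correlated (r = -0.860 over the 6 libraries), and the fit has 3 residual degrees of freedom, so level and genotype cannot be told apart here.

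**Figure D3:**
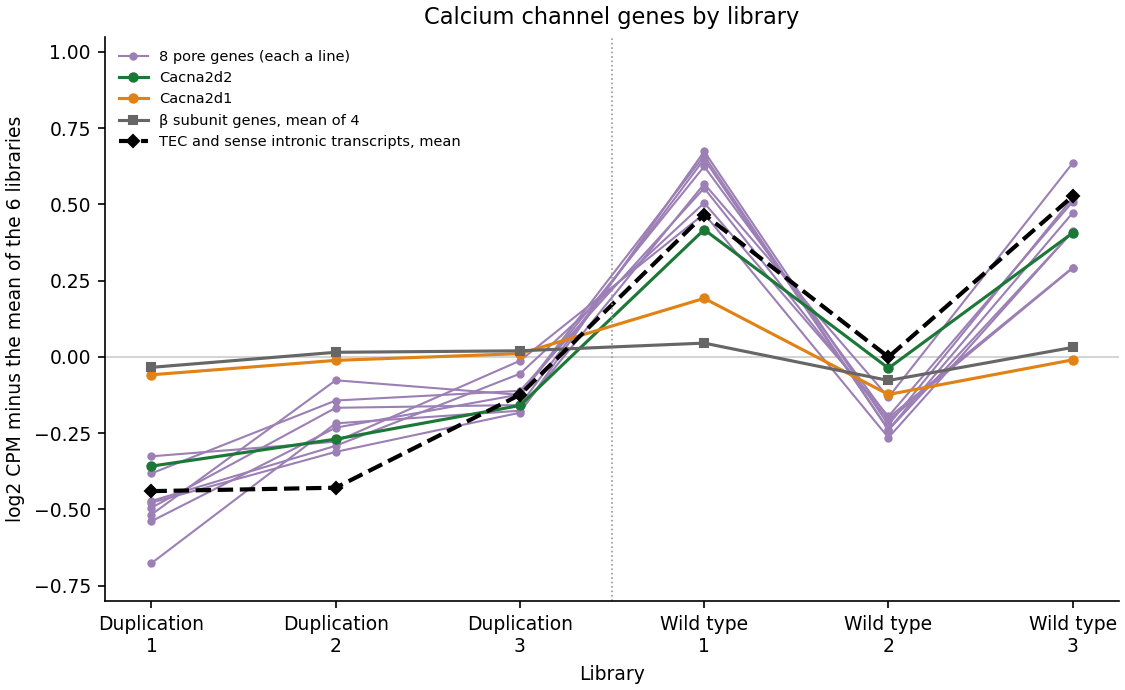
Log2 CPM of each gene minus its mean over the 6 libraries, by library, with duplication libraries on the left; lines join the values of 1 gene or list. The 8 pore genes and Cacna2d2 are high in wild type replicates 1 and 3, as is the TEC and sense intronic mean (black, dashed), while Cacna2d1 and the mean of the β genes vary less. In replicate 2 that mean is at -0.43 in duplication and -0.00042 in wild type, where the pore genes average -0.21 in both.

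Leaving out wild type replicate 2 changed the calls. Without it, edgeR called 9 of the 10 genes lower over all genes, where 10.7% of all tested genes were called lower and 4.65% higher. Log2 fold changes of those 9 then ranged from -0.64 for Cacna1b to -0.95 for Cacna1e, and Cacna2d1 was at -0.12 and did not pass (adjusted p = 0.265). Without a filter on low counts the same test also made calls with all libraries. They are given in the closing section beside the calls over all genes of that fit. Leaving out any other single library gave 0 calls, with the smallest adjusted p between 0.260 and 0.490.

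**Figure D4:**
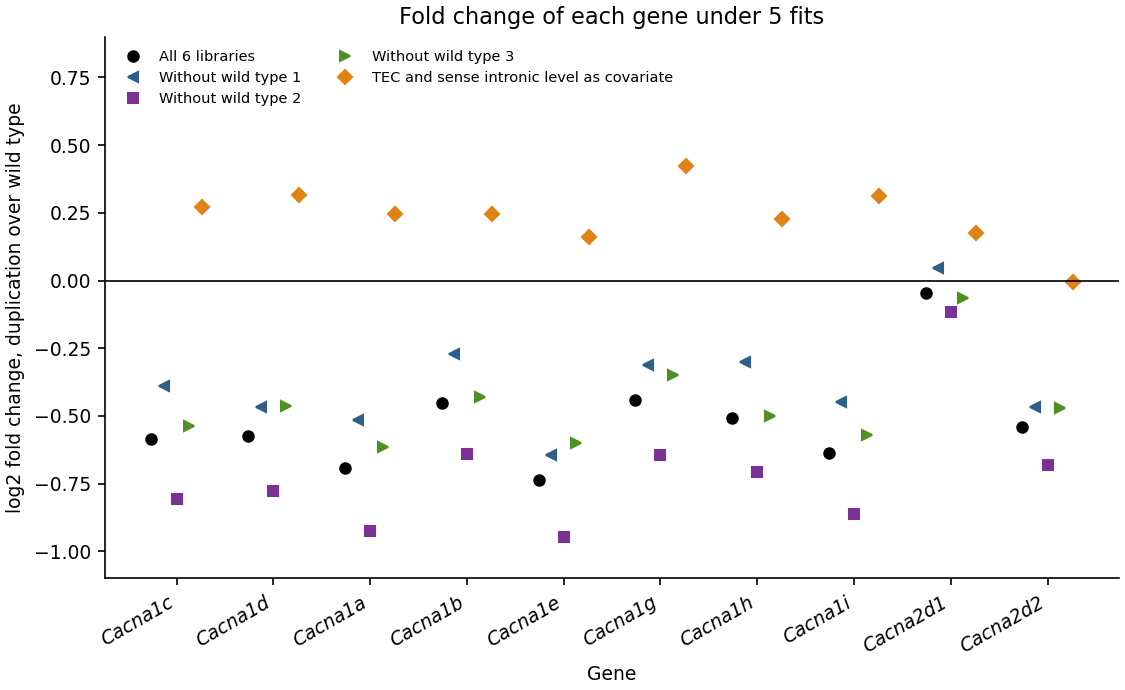
Log2 fold change of each gene, duplication over wild type, in 5 edgeR fits. Values without wild type replicate 2 (squares) are the lowest for each gene, and values with the TEC and sense intronic level as covariate (diamonds) lie above 0 for all but Cacna2d2, at -0.0063.

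Scaled to length, the makeup of the pore transcripts was similar in all libraries. Levels were divided by the union of annotated exons, 7.95 to 25.2 kilobases for the 10 genes. Averaged over all libraries, Cacna2d1 had 34.7 ± 2.6 CPM per kilobase (SD, n = 6), followed by Cacna1e at 17.9 ± 6.4, Cacna1b at 12.4 ± 3.2, Cacna1a at 8.81 ± 3.11 and Cacna1i at 8.56 ± 2.89. Cacna1g came next at 5.63 ± 1.46, then Cacna1h at 4.06 ± 1.19, Cacna1d at 3.97 ± 1.19, Cacna1c at 3.82 ± 1.22 and Cacna2d2 at 2.12 ± 0.52. The range of Cacna2d1 over the 6 libraries lay above that of Cacna1e, and all other neighbours in this order overlapped in range when the libraries were pooled. Compared within a library, Cacna1e was above Cacna1b, Cacna1b above Cacna1a, Cacna1i above Cacna1g, Cacna1g above Cacna1h and Cacna1c above Cacna2d2 in 6 of 6 libraries. The order of Cacna1a and Cacna1i, of Cacna1h and Cacna1d, and of Cacna1d and Cacna1c changed between libraries. These orders depend on the length used. With the longest annotated transcript as length, Cacna1a was above Cacna1b in wild type replicate 1 (19.3 against 18.2 CPM per kilobase). The same held in wild type replicate 3 (17.4 against 15.1), and Cacna1a was below Cacna1b in the other libraries.

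As a share of the summed pore level per kilobase, P/Q-, N- and R-type genes made up 59.2% ± 0.6 in duplication and 60.6% ± 0.7 in wild type, T-type genes 28.7% ± 0.4 and 27.5% ± 0.7, and L-type genes 12.1% ± 0.2 and 11.9% ± 0.03 (SD, n = 3 each). Within the pore genes the share of Cacna1b was 21.1%, 20.3% and 19.6% in duplication libraries and 18.9%, 19.2% and 17.0% in wild type libraries, so the lowest duplication value was above the highest wild type value. The share of Cacna1e was 24.1%, 27.1% and 26.3% in duplication libraries and 26.8%, 28.4% and 30.3% in wild type libraries, and these overlapped. The T-type share was 28.9%, 28.2% and 28.9% in duplication libraries and 28.2%, 27.3% and 26.9% in wild type libraries, with an overlap at the lowest duplication library. These shares are ratios within a library, free of its scaling, and have no test.

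**Figure D5:**
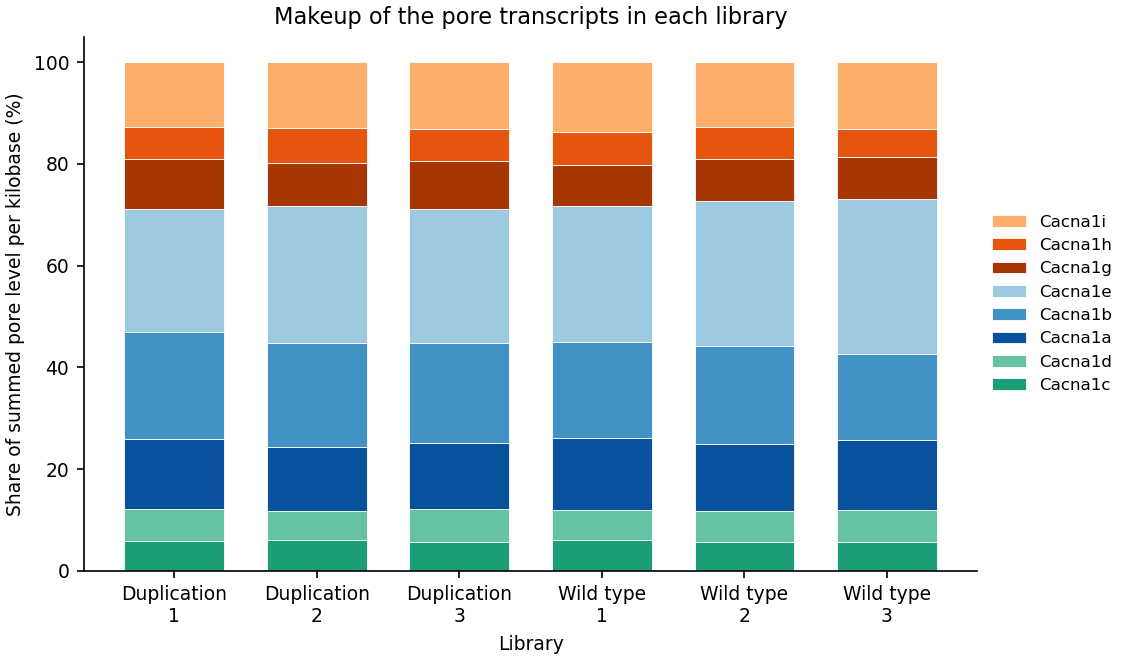
Makeup of the pore transcripts in each library: bars stack the share of each of the 8 pore genes in their summed level per kilobase of exons, in percent, with duplication libraries on the left. The shares change little between libraries, and Cacna1b is at 19.6% to 21.1% in duplication libraries and 17.0% to 19.2% in wild type libraries.

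Promoter sequence is shown for 4 genes, both genes whose groups did not overlap (Cacna1e and Cacna2d2), the abundant Cacna2d1 that was near 0, and the N-type gene Cacna1b. The windows run from 250 bases before to 50 bases after a RefSeq start site (GRCm38.p6) on the gene's own strand, and 7 of the 10 genes matched an entry, with 10 windows in all. Capitals mark matches on either strand to the GC box GGGCGG, a binding site of SP factors, and to TGACG, the half-site of the cAMP response element that CREB binds; neighbouring matches can overlap.
Cacna1e, chr1:154725871-154726170, minus strand: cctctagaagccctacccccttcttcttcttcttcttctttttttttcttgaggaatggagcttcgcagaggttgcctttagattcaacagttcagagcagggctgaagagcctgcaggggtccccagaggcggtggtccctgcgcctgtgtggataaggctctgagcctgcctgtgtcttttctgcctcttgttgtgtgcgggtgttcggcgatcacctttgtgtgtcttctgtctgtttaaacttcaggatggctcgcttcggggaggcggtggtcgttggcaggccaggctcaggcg
Cacna2d2, chr9:107399630-107399929, plus strand: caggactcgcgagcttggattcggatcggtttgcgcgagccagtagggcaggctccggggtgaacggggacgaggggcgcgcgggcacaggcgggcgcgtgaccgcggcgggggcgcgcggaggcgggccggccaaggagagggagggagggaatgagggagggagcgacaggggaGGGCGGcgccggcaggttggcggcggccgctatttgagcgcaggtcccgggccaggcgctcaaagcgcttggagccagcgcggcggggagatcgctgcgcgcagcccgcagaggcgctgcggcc
Cacna2d1, chr5:15934441-15934740, plus strand: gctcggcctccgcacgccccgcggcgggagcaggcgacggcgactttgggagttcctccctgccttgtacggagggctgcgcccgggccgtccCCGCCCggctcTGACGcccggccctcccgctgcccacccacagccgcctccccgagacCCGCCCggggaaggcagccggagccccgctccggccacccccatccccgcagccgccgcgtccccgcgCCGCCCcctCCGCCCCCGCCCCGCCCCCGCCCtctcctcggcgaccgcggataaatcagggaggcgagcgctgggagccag
Cacna1b, chr2:24763103-24763402, minus strand: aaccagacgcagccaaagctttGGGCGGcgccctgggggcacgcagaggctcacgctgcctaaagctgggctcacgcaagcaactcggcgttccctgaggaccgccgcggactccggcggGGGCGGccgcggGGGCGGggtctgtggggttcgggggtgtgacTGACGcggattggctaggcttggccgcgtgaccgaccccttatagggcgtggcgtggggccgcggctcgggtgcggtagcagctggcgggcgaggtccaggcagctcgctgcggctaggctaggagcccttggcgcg
The Cacna1e window held neither motif and was 55.3% G and C, with 11 CpG pairs. The Cacna2d2 window held 1 GC box, was 75.7% G and C and had 43 CpG pairs. Cacna2d1 held 7 GC boxes and 1 TGACG, at 80.0% and 42 CpG pairs, and Cacna1b 3 GC boxes and 1 TGACG, at 72.3% and 35. The median of all 32851 promoter windows was 52.7% and 7. Of the 10 windows of the calcium channel genes, 5 held a GC box and 4 a TGACG, against 35.7% and 20.8% of all windows. The full element TGACGTCA was in 0 of the 10 and in 1.79% of all windows, the E-box CACGTG in 0 and 7.15%, and the TATA box TATAAA in 1, an upstream start of Cacna1d, and 13.6%. A match describes letters in these windows only.

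The genes are long, and long genes were lower more often in these libraries. Their span was 59.5 kb for Cacna1h and 65.8 kb for Cacna1g, and 111 to 609 kb for the other 8, with Cacna1c the longest. Of 2206 tested genes of 100 kb or more, 24.3% were lower at an unadjusted p under 0.05 and 4.85% higher, against 7.11% lower and 7.96% higher of 6708 genes under 20 kb. The median log2 fold change was -0.094 in the longer genes and 0.045 in the shorter. Cacna1c was at -0.59, Cacna1e (494 kb) at -0.74 and Cacna2d1 (440 kb) at -0.045, and the shortest, Cacna1g and Cacna1h, at -0.44 and -0.51. The part of length in the result was not tested. Overlap with other genes was small. Exons shared with a gene on the opposite strand came to 589 bases for Cacna1d (with Chdh, 193 counts in all libraries), 435 bases for Cacna1a (with Gm16183, 1 count), 158 bases for Cacna1h (with Tpsg1, 0 counts) and 82 bases for Cacna2d2 (with Gm17141, 0 counts).

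Of the other subunit genes few stood away from 0. The 4 β genes had log2 fold changes of -0.19 to 0.092, and 0 of 4 had an unadjusted p under 0.05. Cacnb4 had 456, 423 and 455 CPM in duplication libraries and 443, 387 and 421 CPM in wild type libraries, an overlapping range, with a log2 fold change of 0.092 ± 0.067. Cacnb1 was at -0.19 ± 0.092, Cacnb2 at 0.051 ± 0.059 and Cacnb3 at 0.045 ± 0.058. Of the other pore and α2δ genes, Cacna2d3 was at -0.042 ± 0.070 and Cacna2d4 at -0.033 ± 0.29, and the retinal and muscle pores Cacna1f and Cacna1s had too few counts to be tested.

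Among 7 tested γ subunit genes, most of which encode auxiliary subunits of AMPA receptors (TARPs), 2 were lower at an unadjusted p under 0.05 and 0 passed in edgeR. Over all tested genes 12.2% were lower at that unadjusted level. Cacng2, which encodes stargazin, had 34.1, 37.9 and 41.2 CPM in duplication libraries and 52.1, 39.5 and 50.2 CPM in wild type libraries, a log2 fold change of -0.33 ± 0.11 (edgeR adjusted p = 0.190). Wild type replicate 2 was again the one that overlapped. Cacng5 was at -0.93 ± 0.31, with 3.28 to 4.80 CPM in duplication libraries and 5.06 to 11.3 CPM in wild type libraries, the highest in wild type replicate 1. That library also had the highest summed level of the tested olfactory bulb markers, 24.5 CPM against 4.04 to 10.8 CPM in duplication libraries and 5.57 to 7.24 CPM in the other wild type libraries, and their part in the value of Cacng5 was not tested. Cacng8 was at -0.27 ± 0.12, Cacng3 at -0.072 ± 0.075, Cacng4 at -0.051 ± 0.10, Cacng7 at -0.049 ± 0.097 and Cacng6 at 0.12 ± 0.43.

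Genes around the channels were mixed, and 0 passed in edgeR in any list. Of 25 tested channel partners and modulators, 5 were lower and 5 higher at an unadjusted p under 0.05, with a median log2 fold change of -0.014. Over all tested genes 12.2% were lower and 7.05% higher at that level. Unc80 and Unc79, which encode large subunits of the sodium leak channel complex, were at -0.45 ± 0.13 and -0.31 ± 0.099, and Calm2, one of the calmodulin genes, and Stx1a, a syntaxin of the release machinery that binds presynaptic channels, at 0.26 ± 0.077 and 0.18 ± 0.063. Of 20 genes downstream of calcium entry, 2 were lower and 2 higher at that level, with a median of 0.0031. The transcription factor gene Mef2d was at -0.53 ± 0.17 and the CREB coactivator gene Crtc1 at -0.42 ± 0.14, while Ppp3ca, the catalytic subunit of calcineurin, was at 0.21 ± 0.065 and Camkk1, a kinase of CaM kinases, at 0.19 ± 0.080.

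Calcium removal genes leaned lower, with 5 of 10 lower at an unadjusted p under 0.05, 0 higher and a median of -0.28. At that level 12.2% of all tested genes were lower and 7.05% higher. Of genes of 100 kb or more, 24.3% were lower and 4.85% higher. Spans of the calcium removal genes ran from 31.2 kb (Slc8a2) to 474 kb (Slc24a3), and the part of length was not tested. The plasma membrane pump gene Atp2b4 had 215, 311 and 299 CPM in duplication libraries and 433, 326 and 504 CPM in wild type libraries, with no overlap and a log2 fold change of -0.62 ± 0.17. The sodium-calcium exchanger gene Slc8a3 was at -0.29 ± 0.083 and the pump gene Atp2b1, higher in duplication, at 0.096 ± 0.053, both also without overlap. Of 5 calcium-activated potassium channel genes, which calcium entry opens after a spike, 2 were lower at that level, the BK channel gene Kcnma1 at -0.43 ± 0.14 and the SK channel gene Kcnn2 at -0.39 ± 0.14. The BK auxiliary gene Kcnmb4 was at 0.070 ± 0.061 and the SK gene Kcnn1 at 0.076 ± 0.082.

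Cell type markers were checked beside these values. Summed levels of 6 inhibitory neuron markers were 525 to 552 CPM in duplication libraries and 525 to 636 CPM in wild type libraries, and of 5 excitatory neuron markers 1201 to 1298 and 1235 to 1489 CPM. In the second list the log2 fold change of Slc17a7, a vesicular glutamate transporter gene, was -0.15, and that of Tbr1, a transcription factor gene of deep-layer neurons, was -0.63. The transcription factor genes Neurod2 and Neurod6 were at -0.17 and 0.19. The 7 meningeal fibroblast markers were all higher in duplication, in sum 32.2 to 60.2 CPM against 20.5 to 29.8 CPM in wild type, and 5 had an unadjusted p under 0.05. At that level 7.05% of all tested genes were higher. The 5 oligodendrocyte markers were all lower on average, in sum 1089 to 1469 CPM against 1216 to 2126 CPM in wild type. Of 4 cerebellar markers, Pcp2, Ppp1r17 and Gabra6 had 0 to 0.406 CPM in duplication libraries and 0 to 0.209 CPM in wild type libraries. The fourth, Cbln3, had 0.757 to 1.01 CPM in duplication libraries and 0.238 to 0.626 CPM in wild type libraries, with no overlap and a log2 fold change of 0.80 that did not pass in edgeR. The part of these markers in the calcium channel values was not tested.

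The genes whose library profile was most like that of Cacna1e were Map3k13, Ankrd52, Xkr6, Ylpm1 and Plekha6, with a root mean square difference of centred log2 CPM over the 6 libraries of 0.0486 to 0.0602. For Cacna2d2 they were Gm10125, Fam222b, Ssh2, Esrrg and Plekhg5, at 0.0376 to 0.0450. Because they were picked for this likeness, the lower means of all 10 in duplication libraries (log2 fold changes of -0.51 to -0.81) followed from the choice.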

How the data were processed

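RNA from 6 prefrontal cortex homogenates was extracted with Trizol and made into TruSeq stranded total RNA libraries with Ribo-Zero, per the labels' protocols. Per the submitters' processing notes, cutadapt, TopHat2, HTSeq and the mm10 build were involved. The sources used here state neither versions, annotation nor strand setting, so reads of overlapping opposite-strand genes may not be separated. The authors deposited raw counts per gene, in a joint table and in 1 table per library, whose 45801 named values were equal. The joint table has 45807 lines, and names were matched to counts with offsets of 0 to 6 lines; 65.1% of names had an offset above 0. Names within 25 lines of a break, 25 names turned into numbers and unnamed lines were left out, 0.909% to 0.954% of each library's counts.

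The genotype comparison used R 4.3.3 and edgeR 4.0.16 (TMM, filterByExpr, quasi-likelihood F-test, Benjamini-Hochberg over 15398 genes, threshold 0.05). DESeq2 1.42.0 and limma 3.58.1 were alternatives, beside other scalings, filters, covariates and left-out libraries. Log2 CPM used a prior count of 2. Each SE of a log2 fold change was its absolute value divided by the square root of the edgeR F statistic. The 95% intervals are this SE times a t quantile on either side, so both are approximations. Lengths, positions and classes came from GENCODE M21 of the same build. On simulated counts with known changes, the fit recovered 53.5% of 1.5-fold and 77.6% of 2-fold changes at the same threshold. It also made 6 calls among unchanged genes. The simulation drew each gene independently, without the shifts that many genes share between these libraries. These shares therefore do not give the power of the real comparison, where Aldoa and Mapk3 did not pass. The 10 genes and all lists were chosen with earlier results of these data known. Named were the 10 genes, every tested subunit gene, in other lists the 2 of smallest p in each direction, and the 5 nearest profiles; Aldoa, Mapk3, individual markers, and genes overlapping the 10 were added as checks. Reads carry no molecular identifiers, so copies made in PCR were not removed by molecule.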

Additional observations from a re-analysis of the deposited data

How the results depend on the processing

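Counts of called genes depended on a few settings. EdgeR on the 6 libraries called none in either direction (0 and 0), with 1086 higher and 1877 lower at an unadjusted p under 0.05. DESeq2 called 46 higher and 239 lower, 2 of the calcium channel genes among the lower. No filter on low counts gave 173 higher and 843 lower of 26418 genes, 9 of the calcium channel genes among the lower. The numbers 1 to 3 are shared by both genotypes. Deviations from the group means correlated at 0.102, 0.0629 and 0.311 between same-numbered libraries. Duplication replicate 1 correlated best with wild type replicate 2 (0.157), and duplication replicates 2 and 3 with the wild type library of their own number. No label says that a number marks a shared litter or day, though the numbers go with sex-linked RNA in both genotypes; the replicate block gave 6 higher, 1 lower and 0 calcium channel genes. Leaving out 1 library gave 0 to 730 higher, 0 to 1676 lower and 0 to 9 calcium channel genes lower. Calls were made when wild type replicate 2 was left out and in no other such fit. An alternative chosen after seeing the data left out both libraries numbered 2, and gave 230 higher, 1090 lower and 9 calcium channel genes lower. Groups with fewer libraries separate more easily, and counts of genes without overlap are not given for the fits with left-out libraries. Sex coded from Y-linked genes or, added later, from Xist gave 0 calcium channel genes.

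With the TEC and sense intronic level as a covariate, log2 values turned for Cacna1a (0.25), Cacna1b (0.25), Cacna1c (0.27), Cacna1d (0.32), Cacna1e (0.16), Cacna1g (0.42), Cacna1h (0.23), Cacna1i (0.31), Cacna2d1 (0.18), Cacnb1 (0.076), Cacng2 (0.15), Cacng4 (0.18), Cacng8 (0.097), Unc80 (0.12), Unc79 (0.053), Mef2d (0.20), Crtc1 (0.14), Atp2b4 (0.038), Kcnma1 (0.24), Kcnn2 (0.13), Calm2 (-0.015) and Camkk1 (-0.062); the cause was not tested. Leaving out 1 library turned Cacna2d1 (range -0.12 to 0.046), Cacna2d3 (-0.086 to 0.00061), Cacna2d4 (-0.28 to 0.22), Cacng6 (-0.18 to 0.74) and Cacng7 (-0.13 to 0.034), none called; without both libraries numbered 2 Cacna2d3 was at 0.0018 and Cacng6 at -0.22. Names as deposited, which read another gene's counts, turned Cacna1a (0.034), Cacng3 (0.18), Cacng6 (-0.049), Kcnn1 (-0.32) and Malat1 (0.027) and left 1 calcium channel gene without overlap. The mean share of L-type, P/Q-, N- and R-type and T-type genes in duplication was 13.2%, 62.7% and 24.0% with the longest transcript as length, and 9.28%, 47.6% and 43.1% with names as deposited; 6 and 1 of the 10 genes kept their rank by level.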
